A study of Mus musculus with 141 samples.

Results

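The genes described here are 5 laminin chain genes (*Lama3*, *Lama5*, *Lamb2*, *Lamb3* and *Lamc1*) and 4 integrin subunit genes (*Itga3*, *Itga6*, *Itgb4* and *Itgb6*), chosen by name, which makes 9 of the 17136 genes counted. They were followed in the 92 cells in which mitochondrial genes took less than 0.15 of the reads, with 49 cells left out, and all 9 had reads in the 92 cells. The cells come from the lungs of 1 male *ACID;R26tdTomato* mouse aged 4 months, labelled as strain 129SV. In this line the *Aqp5* locus drives Cre recombinase and DsRed, and Cre cuts out the stop cassette that blocks *tdTomato* in the *ROSA26* locus. The reporter can thus stay on in a cell that expressed *Aqp5* earlier. The study proposes that some cells with *Aqp5* lack *tdTomato*. Lungs were digested with proteases, tdTomato-positive cells negative for CD31 and CD45 and positive for E-cadherin were sorted, and each was captured at 1 site of a Fluidigm C1 chip. The series has 1 genotype, no treatment and no second mouse, so the mouse is the only sample and no difference between classes could be tested.

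Cells were placed in classes by 3 rules on CPM, the reads of a gene divided by all counted reads of the cell and scaled to 1000000. AT1 cells had at least 5000 CPM of *Ager*, a receptor abundant on alveolar type 1 cells, AT2 cells had at least 8000 CPM of *Sftpc*, the surfactant protein C gene, and all other cells formed the rest. Basal cells were those of the rest with over 50 CPM of *Krt5* or *Trp63*, a keratin and a transcription factor of airway basal cells. This gave 45 AT1 cells (48.9% of the 92), 11 AT2 cells and 36 cells of the rest, of which 8 were basal. The other 28 cells of the rest were divided by the higher of their club and ciliated marker scores into 14 club-scored and 14 ciliated-scored cells, and 3 of the 28 lay within 1 log2 unit of a tie. No cell passed both the *Ager* and the *Sftpc* limit. Within 2-fold of the limits lay 1 cell for *Ager*, 3 cells for *Sftpc* and none for the basal rule.

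Total reads ranged from 142003 to 2170760 in the 92 cells, with medians of 468718 in AT1 cells, 413806 in AT2 cells and 693389 in the rest. The labels name every cell alveolar type 1, but the markers that the rules did not use differed between the classes. The 9 AT1 markers other than *Ager* were all over 10 CPM in AT1 cells, with a summed level of 21753 CPM against 868 CPM in AT2 cells and 634 CPM in the rest. All 7 AT2 markers other than *Sftpc* passed 10 CPM in AT2 cells, and 4 of the 5 basal markers other than *Krt5* and *Trp63* did so in basal cells. In AT1 cells the summed fibroblast markers reached 1.21 CPM and the summed endothelial markers 0.476 CPM. The 2 counted leukocyte markers summed to 15.04 CPM there, with 1 over 10 CPM, and *Ptprc* (CD45) had no read. Outside the AT1 class the fibroblast list summed to 1924 CPM in basal, 375 CPM in club-scored and 989 CPM in ciliated-scored cells. In basal and club-scored cells 1 of its 6 genes was over 10 CPM. In AT2 cells the fibroblast list summed to 4.01 CPM. The leukocyte list summed to 998 CPM there, all of it from *Cd74*, since *Ptprc*, the other counted marker, had no read. The ciliated-scored class held 2 cells with over 100 CPM of *Vim*, a gene of mesenchymal cells, at 912 and 288 CPM, with 870.4 and 1089 CPM of the fibrillar collagen gene *Col3a1*. Ratios to the rest that depend on these 2 cells are given below also without them.

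Laminins are the main cross-shaped glycoproteins of the basement membrane. Each is a trimer of 1 alpha, 1 beta and 1 gamma chain, and the secreted molecule is named after the numbers of its chains, so that laminin-521 joins the products of *Lama5*, *Lamb2* and *Lamc1*. Integrins are receptors made of 1 alpha and 1 beta subunit. Alpha3 beta1 and alpha6 beta1 bind laminins and link to actin, alpha6 beta4 binds laminins and anchors keratin filaments in hemidesmosomes, and alphav beta6 frees active TGF-beta from its latent complex. In the alveolus, AT1 cells are thin and share a fused basement membrane with the capillaries, whereas airway basal cells stand on a thicker membrane that holds the airway epithelium in place.

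Among the 9 genes and the partner subunits *Itgb1* and *Itgav*, the AT1 class had chiefly *Lama3* and *Lamb3* of the laminin chains. Of the integrin subunits it had chiefly *Itga3*, *Itgb6*, *Itgb1* and *Itgav*. Other laminin receptors and linkers are given below, and *Dag1*, at 987 CPM in AT1 cells, was above each of these. *Itgb4* was near 0 in this class, with 7 reads in 45 cells. The AT2 class had only 2 reads of *Lamb3*, and the 4 integrin genes were at 21.2 CPM or less there. Basal cells had reads of *Lamb3* in 8 of 8 cells, 6 of them with at least 5 reads, and the highest level of *Itga6* among the classes. *Itgb4* had reads in 4 of 8 basal cells, 3 of them with at least 5 reads. The club-scored and ciliated-scored cells had *Itgb4*, *Itga3*, *Lama5* and *Lamb2* in a minority of cells each, with the exception of *Itga3* in 8 of 14 ciliated-scored cells and *Lama5* in 7 of 14 club-scored cells, and nearly no *Lama3* or *Itgb6*. The 8 cells with *Itga3* include the 2 *Vim* cells, with 1 and 473 reads. With at least 5 reads these 2 exceptions were also minorities, at 6 of 14 cells for *Itga3* and 4 of 14 for *Lama5*. *Lamb3* had reads in 7 of 14 club-scored cells, 2 of them with at least 5 reads, and in 1 of 14 ciliated-scored cells.

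All 9 genes are annotated as protein coding in GENCODE vM21 (GRCm38). *Lamb3* lies at chr1:193207699-193343878 on the plus strand, and *Lamc1* lies on the minus strand of the same chromosome, at chr1:153218922-153332786. *Itgb6* lies at chr2:60598292-60722643 on the minus strand and *Itgb4* at chr11:115974709-116008412 on the plus strand. Reads were counted per gene, so isoforms cannot be told apart.

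The promoter sequences of *Lamb3* and *Itgb6* are shown because their products, a laminin beta chain and an integrin beta subunit, had the widest ratios between AT1 and AT2 cells of the 9 genes. RefSeq starts (GRCm38.p6) were found for *Lama5*, *Lamb2*, *Lamb3*, *Itga3* and *Itgb6*, 8 starts in all. No entry was found for *Lamc1*, *Itga6* and *Itgb4*. Each sequence below is the 250 bases before the second listed start, 5′ to 3′ on the gene's strand, and the capitals mark a match of the TEAD motif.
*Lamb3*, chr1:193301993-193302242, plus strand: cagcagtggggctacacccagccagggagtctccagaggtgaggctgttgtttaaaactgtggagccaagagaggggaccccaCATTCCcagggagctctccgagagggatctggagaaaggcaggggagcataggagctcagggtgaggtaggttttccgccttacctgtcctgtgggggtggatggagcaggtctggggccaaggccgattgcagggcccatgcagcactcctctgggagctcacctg
*Itgb6*, chr2:60722604-60722853, minus strand: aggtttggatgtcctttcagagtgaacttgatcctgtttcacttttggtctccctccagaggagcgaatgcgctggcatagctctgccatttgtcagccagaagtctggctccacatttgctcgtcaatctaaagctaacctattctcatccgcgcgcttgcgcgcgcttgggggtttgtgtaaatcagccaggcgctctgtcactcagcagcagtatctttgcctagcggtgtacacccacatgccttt
The TEAD motif was searched as GGAATG and, on the other strand, CATTCC, and the AP-1 motif as TGANTCA on both strands. In the 8 sequences, TEAD had 1 match, which begins 167 bases before the second start of *Lamb3*, and AP-1 had none, so no matches overlap. Of 32851 promoter windows of 250 bases, 12.6% held the TEAD letters and 6.75% the AP-1 letters. A match describes the letters only.

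**Figure D1:**
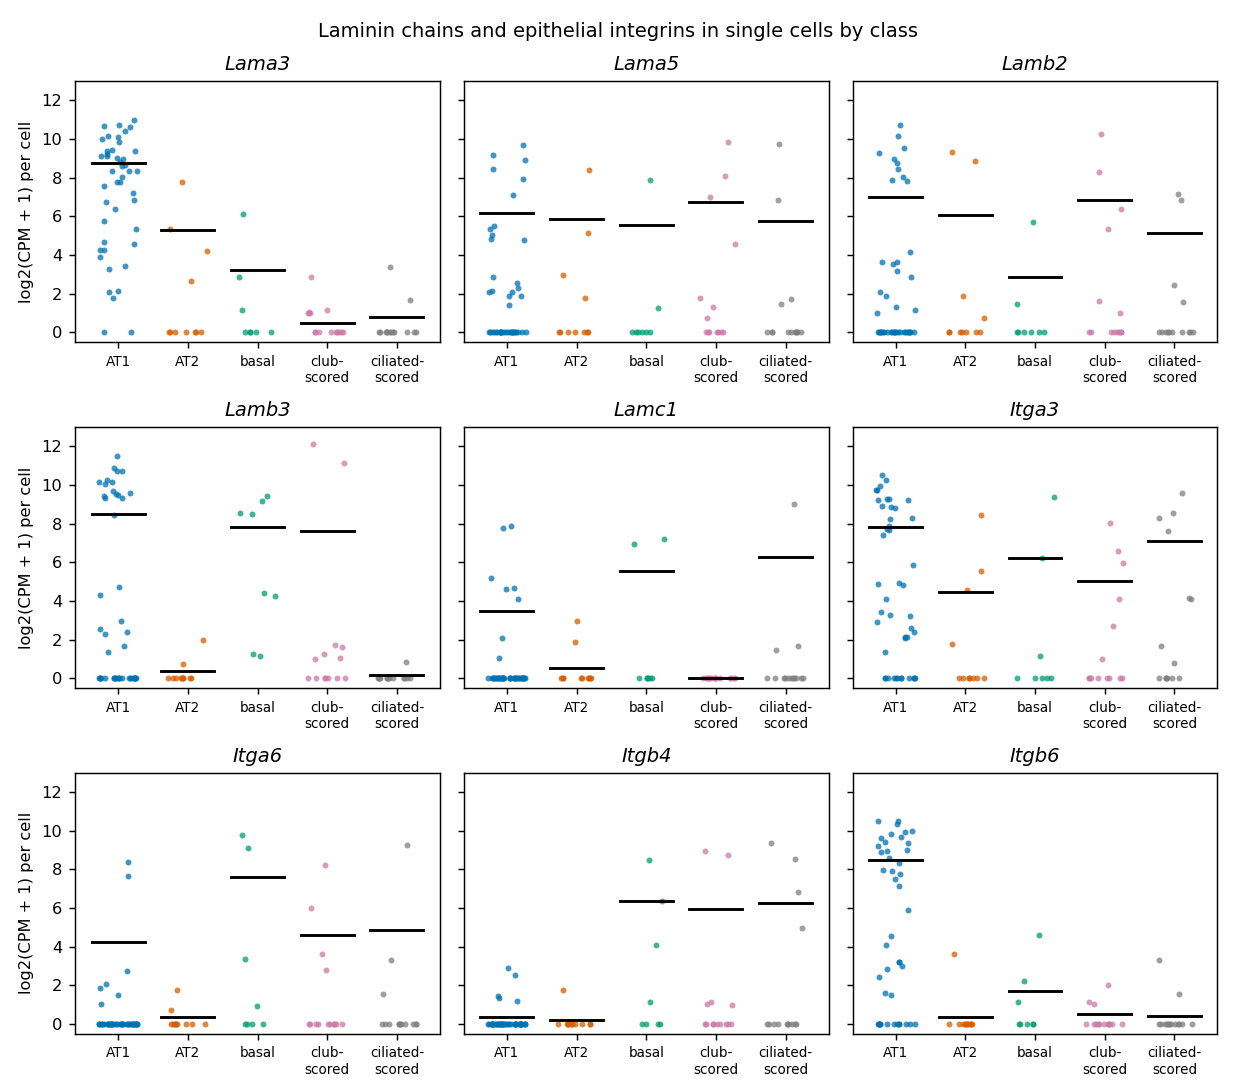
Level of each of the 9 genes in each of the 92 cells, as log2(CPM + 1) on the vertical axis and by class on the horizontal axis (45 AT1, 11 AT2, 8 basal, 14 club-scored and 14 ciliated-scored cells). Points are cells, shifted sideways at random, and the black line is the CPM of the summed counts of the class. *Lama3* and *Itgb6* have high points in AT1 cells and few elsewhere, and *Itgb4* has high points only outside the AT1 and AT2 classes.

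*Lama3* encodes the laminin alpha3 chain. In AT1 cells it ranged from 0 to 2048 CPM per cell with a median of 319 CPM, and 43 of 45 cells had reads. In AT2 cells it ranged from 0 to 217 CPM with a median of 0, and 4 of 11 cells had reads. All cells of the rest stayed below 69 CPM, and 30 of the 45 AT1 cells were above 100 CPM against 1 of 11 AT2 cells. Summed over each class, the level was 434 CPM in AT1 cells (95% exact Poisson interval 425 to 442), 38.4 CPM in AT2 cells (33.8 to 43.5) and 2.22 CPM in the rest (1.69 to 2.86). These and all intervals below cover counting error only and not the spread between mice, and reads after PCR are not independent molecules. One AT2 cell held 94.4% of the reads of that class, and without it AT2 cells were at 2.59 CPM. The ratio of AT1 to AT2 cells was 11.3 (9.95 to 12.9) with that cell and 154 when each class lost its cell with the most reads. Of all *Lama3* reads in the 92 cells, 97.01% lay in AT1 cells. *Lama3* was on the list of AT1 genes that the study drew from these cells, so its place in AT1 cells is no independent evidence.

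*Lama5* encodes the alpha chain of laminin-511 and laminin-521, the common alveolar and airway basement membrane forms. It had reads in 20 of 45 AT1 cells, 4 of 11 AT2 cells and 13 of 36 cells of the rest, and its median was 0 CPM in each of these classes. Its highest single cells were at 833 CPM in AT1, 340 CPM in AT2 and 907 CPM in the rest, so the AT1 cells and the rest overlapped over nearly their whole range and the AT2 range ended lower. The summed level was 71.5 CPM in AT1 cells (68.1 to 75.1), 74.9 CPM in the rest (71.7 to 78.3) and 58.1 CPM in AT2 cells (52.3 to 64.2). The AT1 and rest intervals overlap. The AT2 value came from the same cell that held most of the AT2 *Lama3* reads, with 367 of 376 reads, and without it the AT2 level was 1.67 CPM. In basal cells 1 cell held 264 of 265 reads.

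*Lamb2* encodes the beta chain that can replace beta1 in laminin-321 and laminin-521. It was detected in 21 of 45 AT1 cells, 4 of 11 AT2 cells, 2 of 8 basal cells and 10 of the other 28 cells of the rest. Single cells reached 633 CPM in AT2 and 1242 CPM in the club-scored class, and the medians of the AT1, AT2, basal, club-scored and ciliated-scored classes were all 0. The summed level was 127.5 CPM in AT1 cells (122.9 to 132.2), 65.9 CPM in AT2 cells (59.8 to 72.5), 112.8 CPM in club-scored cells (106.9 to 118.99), 34.8 CPM in ciliated-scored cells (31.1 to 38.8) and 6.31 CPM in basal cells (4.42 to 8.74). One club-scored cell held 86.2% of the reads of its class, and without it the class was at 16.9 CPM. In AT2 cells 262 of 427 reads came from 1 cell, without which the class was at 27.2 CPM. In the ciliated-scored class 182 of 322 reads came from a *Vim* cell, and without it the class was at 17.5 CPM. Basal cells were the lowest class for this chain, with 36 reads of which 34 came from 1 cell.

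*Lamb3* encodes the laminin beta3 chain, and its reads were uneven over the AT1 cells. Such gaps were not particular to *Lamb3*, since *Lamb2* had reads in 21 of 45 AT1 cells and *Itgb6* in 31. Missing reads in a cell do not show that *Lamb3* was absent. Of the 45 AT1 cells, 21 had no *Lamb3* read, 16 were above 100 CPM, and the highest was at 2859 CPM, with a median of 2.12 CPM. In the 11 AT2 cells there were 2 reads in all, 1 in each of 2 cells. All 8 basal cells had reads, 6 of them at least 5, with a lowest value of 1.23 CPM, a median of 188 CPM and a highest value of 694 CPM. Basal cells were the only class in which no cell lacked *Lamb3* reads, although their range lay within that of AT1 cells. The summed level was 365 CPM in AT1 cells (357 to 373), 228 CPM in basal cells (216 to 241), 193 CPM in club-scored cells (185 to 201) and 0.309 CPM in AT2 cells (0.0374 to 1.11). The club-scored level came from 2 cells with at least 5 reads, 1 with 1524 reads at 2250 CPM and 1 with 804 reads at 4504 CPM. Without the former the class was at 71.1 CPM and without the latter at 128.6 CPM. Ciliated-scored cells had 1 read. The ratio of AT1 to AT2 cells was 788, with a counting interval of 327 to 9760 that is wide because AT2 cells had so few reads. In the AT2 cells left out for their mitochondrial share, *Lamb3* was at 21.6 CPM.

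*Lamc1*, the gamma chain of most laminins, was detected in few cells of any class. There were reads in 8 of 45 AT1 cells, with a highest value of 231 CPM and a summed level of 10.2 CPM (8.90 to 11.5), and 3 reads in the 11 AT2 cells. Among basal cells 2 of 8 had reads, and the class level was 45.3 CPM (39.9 to 51.1). Without the cell with the most reads the AT1 level was 6.50 CPM and the basal level 21.4 CPM. The 14 club-scored cells had none, where a count of 0 was taken to allow up to 3 reads over the class, or 0.248 CPM. In the ciliated-scored class, 712 of 714 reads came from 1 of the 2 *Vim* cells. Without that cell the ciliated-scored level was 0.254 CPM.

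Some of these trimers also need chains outside the set. *Lamb1*, the beta chain of laminin-311 and laminin-511, had no read in AT1 or AT2 cells, where the same 3 reads make 0.130 and 0.463 CPM. In the rest *Lamb1* was at 27.8 CPM, with 390 and 177 of its 753 reads in the 2 *Vim* cells and 184 in 1 basal cell. *Lama4* had reads only in 1 *Vim* cell (380 reads), and *Lama2* had 1 read in all. *Lama1* and *Lamc3* were not analysed here.

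**Figure D2:**
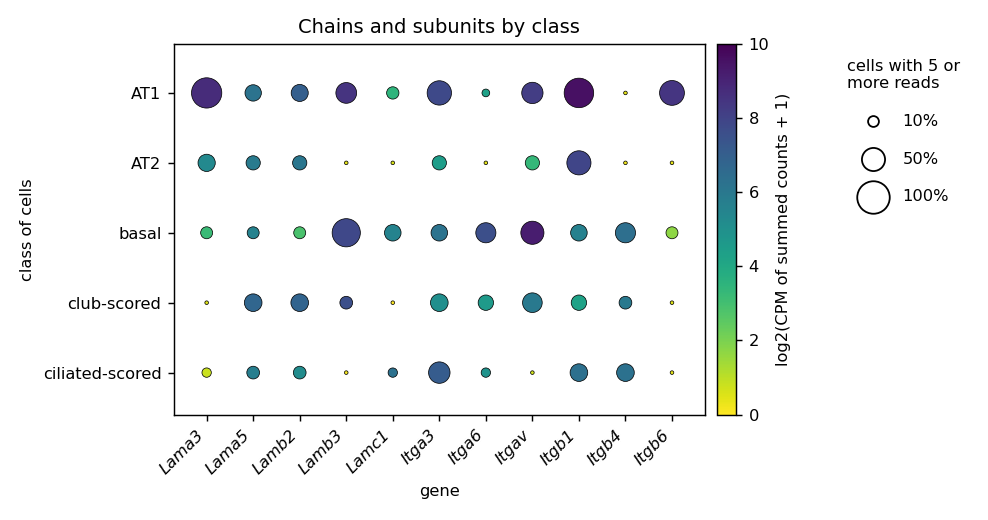
The 9 genes and the partner genes *Itgav* and *Itgb1* on the horizontal axis and 5 classes of cells on the vertical axis. The colour is log2(CPM + 1) of the summed counts of the class and the area of a circle is the share of its cells with at least 5 reads. *Itgb6* is dark only in AT1 cells, and *Lamb3*, *Itga6* and *Itgav* are dark in basal cells.

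With at least 5 reads of each, *Lama3* and *Lamb3* were found together in 16 of 45 AT1 cells, in none of the 11 AT2 cells and in 1 of 8 basal cells. A further 25 AT1 cells had 1 of these genes at 5 reads and 4 cells had neither, while 8 of 11 AT2 cells had neither. Cells were also counted by whether 1 cell had reads of every chain of a trimer. The combination for laminin-321 (*Lama3*, *Lamb2*, *Lamc1*) was found in 4 AT1 cells and 1 cell of the rest and that for laminin-521 (*Lama5*, *Lamb2*, *Lamc1*) in 2 AT1 cells. With at least 5 reads of each chain laminin-321 was found in 2 AT1 cells and no cell of the rest and laminin-521 in no cell. The combinations for laminin-311 and laminin-511, which need *Lamb1*, were found in none of the 92 cells. Missing reads in a single cell do not show that a chain is absent, since depth limits detection.

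**Figure D3:**
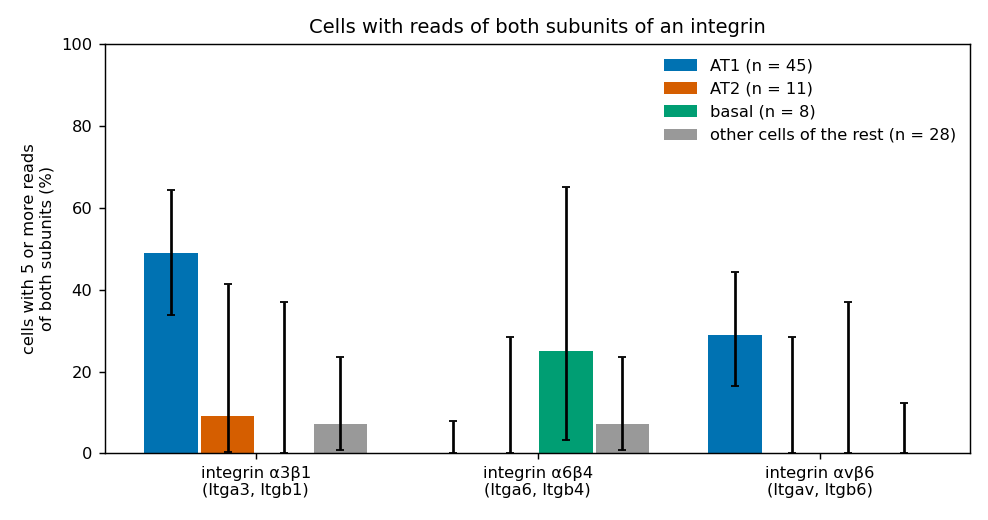
Share of cells with at least 5 reads of both subunits of an integrin (vertical axis, percent) in AT1, AT2, basal and other cells of the rest, with 95% Clopper-Pearson intervals as error bars. For integrin alphav beta6 the AT1 bar is the only one above 0, and for alpha6 beta4 the AT1 and AT2 bars are at 0.

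On the receptor side, *Itga3* encodes the alpha subunit of the laminin receptor alpha3 beta1. It had reads in 33 of 45 AT1 cells, with a median of 16.1 CPM and a highest value of 1476 CPM. In the 11 AT2 cells 4 had reads and the highest was at 341 CPM, and in the rest 17 of 36 had reads and the highest was at 767 CPM. Both groups overlapped with AT1 cells, but 18 of 45 AT1 cells exceeded 100 CPM against 1 of 11 AT2 cells and 6 of 36 cells of the rest. The summed level was 224 CPM in AT1 cells (218 to 230), 137.4 CPM in ciliated-scored cells (129.95 to 145), 72.96 CPM in basal cells (66.1 to 80.3), 32.1 CPM in club-scored cells (28.98 to 35.5) and 21.2 CPM in AT2 cells (17.8 to 25). The levels outside the AT1 class depended on single cells. Without the cell with the most reads they were 84.6 CPM in ciliated-scored, 10.5 CPM in basal, 12.8 CPM in club-scored and 6.14 CPM in AT2 cells, against 189 CPM in AT1 cells. In the ciliated-scored class 549 of 1272 reads came from that cell and 473 from a *Vim* cell.

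*Itga6* encodes the alpha subunit that pairs with beta1 or beta4. Its summed level was highest in basal cells, at 192 CPM (181 to 204), with reads in 4 of 8 cells. Of these 1097 reads, 614 and 476 came from 2 cells, at 546 and 861 CPM, and a ciliated-scored cell reached 622 CPM. In chip columns 1 to 10 alone the basal level was below that of the other cells of the rest, with a log2 ratio of -4.54. AT1 cells were at 18.2 CPM (16.5 to 20.03), from 7 of 45 cells of which 2, with 247 and 166 of the 421 reads, had at least 5 reads, and AT2 cells had 2 reads. Club-scored and ciliated-scored cells were at 23.3 CPM (20.7 to 26.2) and 28.4 CPM (25.1 to 32.1), intervals that overlap. Most cells of every class other than the basal had no *Itga6* read, and 1 cell held 55.97% of the reads in basal cells and 58.7% in AT1 cells. *Itgb1*, the beta subunit shared by alpha3 and alpha6, was at 774 CPM in AT1 cells (763 to 786), 244 CPM in AT2 cells (232 to 256) and 45.5 CPM in the rest (42.97 to 48.1), with reads in 41 of 45, 9 of 11 and 20 of 36 cells.

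*Itgb4* encodes the beta subunit found only in the hemidesmosome receptor alpha6 beta4. In AT1 cells it had 7 reads in 5 of 45 cells, none with 5 or more, and a level of 0.303 CPM (0.122 to 0.624). AT2 cells had 1 read. In the rest 13 of 36 cells had reads, 9 had at least 5 reads, the highest was at 648 CPM and the summed level was 70.5 CPM (67.4 to 73.8). The rest was thus 233-fold above AT1 cells (112.9 to 581), and no AT1 cell exceeded 6.36 CPM whereas 6 cells of the rest exceeded 100 CPM. Within the rest the summed levels were 82.8 CPM in basal (75.5 to 90.6), 76.2 CPM in ciliated-scored (70.6 to 81.99) and 60.5 CPM in club-scored cells (56.2 to 65.02), and the first and second of these intervals overlap. Each rested on few cells, and without the cell with the most reads they were 15.7 CPM in basal, 42.5 CPM in ciliated-scored and 29.9 CPM in club-scored cells. *Itgb4* shares 537 exon bases with the noncoding gene *B230344G16Rik* on the other strand, and the strand setting of the counting is not given in the sources used here.

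*Itgb6* encodes the epithelial beta subunit of alphav beta6. It had reads in 31 of 45 AT1 cells, with a median of 22.4 CPM and a highest value of 1441 CPM, and 21 cells were above 100 CPM. In AT2 cells 1 of 11 had reads, and its 2 reads made 11.5 CPM. In the rest 8 of 36 cells had reads and the highest was at 23.7 CPM. No cell outside the AT1 class thus came near the level of the upper AT1 cells, while 14 AT1 cells had no read. The summed level was 352 CPM in AT1 cells (344 to 360), 0.309 CPM in AT2 cells and 0.776 CPM in the rest (0.481 to 1.19), and 99.7% of the 8161 reads of the gene in the 92 cells lay in AT1 cells. *Itgb6* and *Itgb1* were also on the study's list of AT1 genes from these cells. Its alpha partner *Itgav* was not restricted in this way, at 297 CPM in AT1 cells (290 to 304), 582 CPM in basal cells (562 to 602), 61.4 CPM in club-scored cells (57.04 to 65.96) and 9.11 CPM in AT2 cells (6.93 to 11.8).

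Levels outside the AT1 class were also set against those in AT1 cells. In the rest *Itgb6* stood at 0.221% and *Lama3* at 0.511% of their AT1 levels, while *Lamb3* stood at 36.8% and *Itga3* at 34.3%. In AT2 cells *Lamb3* and *Itgb6* were at 0.0846% and 0.0878% of their AT1 levels. In the other direction, AT1 cells had reads of markers of other classes. The club list summed to 737 CPM in AT1 cells with 5 of 6 genes over 10 CPM, of which *Scgb1a1* made 588 CPM, and the ciliated list to 1412 CPM with 2 of 7 genes over 10 CPM, of which *Tppp3* made 1396 CPM. The basal list summed to 4.54 CPM there. The part of reads from other cells in these values was not tested. Of the 321 pairs of gene and cell with any read, 36.4% had 1 to 4 reads, so shares of cells are given at 5 reads as well.

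Both subunits of alpha3 beta1 were detected together in 32 of 45 AT1 cells, 2 of 11 AT2 cells and 11 of 36 cells of the rest, and with at least 5 reads of each in 22, 1 and 2 cells. For alphav beta6 the numbers were 25 AT1 cells, no AT2 cell and 6 cells of the rest, and with at least 5 reads 13 AT1 cells and no other cell. Alpha6 beta4 lay outside the AT1 class. No AT1 cell had reads of both *Itga6* and *Itgb4*, which with 0 of 45 cells has an upper Clopper-Pearson limit of 7.87%, whereas 1 AT2 cell and 6 of 36 cells of the rest did, and 4 of the latter, 2 basal and 2 others, had at least 5 reads of each. Alpha6 beta1 was found in 7 AT1 cells, 1 AT2 cell and 5 cells of the rest, with at least 5 reads of each subunit in 2 AT1 cells and 2 cells of the rest.

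AT1 and AT2 cells were compared over all genes with at least 10 CPM in the higher class. Of the 9 genes 8 could be compared, and 6 were at least 2-fold higher in AT1 cells (*Lama3*, *Lamb3*, *Lamc1*, *Itga3*, *Itga6* and *Itgb6*) and none lower. Of all 8796 genes compared, 51.4% were at least 2-fold higher in AT1 cells and 24.3% at least 2-fold lower, so the background itself leans to AT1 cells, and 6 of 8 has to be read against it. The median log2 ratio of the 8 genes was 3.98 and that of all genes 1.13. *Itga3* was 10.6-fold higher (8.93 to 12.6), *Itgb6* 760-fold (315 to 9410, from 2 AT2 reads), *Itga6* 39.3-fold (16.2 to 488, from 2 AT2 reads) and *Lamc1* 21.9-fold (7.41 to 107.1, from 3 AT2 reads). The calls of *Itga6* and *Lamc1* did not hold. With a mitochondrial maximum of 0.10 their log2 ratios were -1.62 and 0.50, and without the top cell both AT1 levels were under the 10 CPM minimum, at 7.77 and 6.50 CPM. *Itga3* was 30.7-fold higher without the top cell of each class, and with halved class limits the log2 ratio of *Lamb3* fell from 9.62 to 2.07. The halved limits place in the AT2 class the club-scored cell with 804 *Lamb3* reads, whose *Sftpc* was at 6694 CPM. *Lamb2* (1.93, 1.75 to 2.15) and *Lama5* (1.23, 1.10 to 1.38) stayed under 2-fold. Without the top cell of each class *Lama5* became 30.2-fold and *Lamb2* 3.92-fold higher in AT1 cells, so the near equality of *Lama5* depends on 1 AT2 cell.

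**Figure D4:**
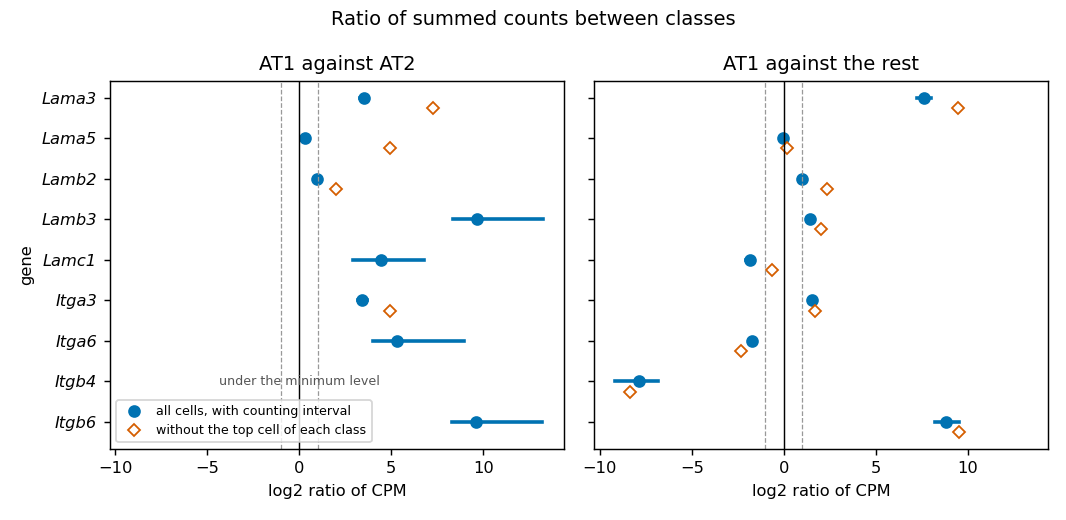
log2 ratio of CPM (horizontal axis) of each gene between AT1 and AT2 cells (left) and between AT1 cells and the rest (right). Filled circles are ratios of summed counts with their 95% counting intervals, open diamonds are ratios after each class lost the cell with the most reads of the gene, left out where 3 or fewer reads remained in a class, and dashed lines mark a 2-fold ratio. *Lama3* and *Itgb6* lie far to the right in both panels, *Itgb4* lies far to the left against the rest, and the *Lama5* circle and diamond lie far apart against AT2 cells.

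Against the rest, 5 of 9 genes were at least 2-fold higher in AT1 cells, where 33.4% of 10205 genes were, and 3 were lower, where 34.8% were. The higher genes were *Lama3* (196-fold, 152 to 257), *Itgb6* (453-fold, 296 to 732), *Itga3* (2.91-fold, 2.77 to 3.07), *Lamb3* (2.71-fold, 2.61 to 2.82) and *Lamb2* (2.003-fold, 1.89 to 2.13, an interval that includes values under the limit). The lower genes were *Itgb4*, *Lamc1* (3.54-fold, 3.06 to 4.10) and *Itga6* (3.34-fold, 2.99 to 3.72). Without the top cell of each class *Lama3* was 704-fold, *Itgb6* 740-fold and *Lamb2* 5.10-fold higher, and *Itga6* was 5.10-fold lower. The log2 ratio of *Lamb3*, 1.44, was under the limit with a mitochondrial maximum of 0.10 (0.91), as a mean of single-cell CPM (0.71), after thinning (0.79) and in chip columns 1 to 10 (0.62). Without the top cells *Lamc1* was 1.56-fold lower, under the limit, and without the 2 *Vim* cells its log2 ratio was -0.07, so its lower level in AT1 cells depends on 1 cell. The log2 ratio of *Itga3* became 1.77 and that of *Lamb2* 1.01 without the 2 *Vim* cells, and neither changed side of the limit. *Lama5* was at 0.955 times the level of the rest (0.894 to 1.02).

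AT2 cells against the rest had 1 of 8 genes at least 2-fold higher (21.7% of 9351 genes) and 5 lower (51% of genes). The higher gene was *Lama3*, at 17.3-fold (13.03 to 23.4), which was 4.57-fold without the top cell of each class, when both classes were below 3 CPM. The lower genes were *Lamb3*, *Lamc1*, *Itga3*, *Itga6* and *Itgb4*, of which all but *Itga3* (3.63-fold, 3.05 to 4.35) had 3 or fewer AT2 reads. The *Lamb3* ratio was 290.3-fold (120.5 to 3597) and the *Itgb4* ratio 152-fold (81.9 to 18056). *Lama5* and *Lamb2* were within 2-fold. Without the top cell of each class *Lama5* was 26.8-fold and *Itga3* 9.44-fold lower in AT2 cells, so the near equality of *Lama5* depends on the AT2 cell with 367 of its 376 reads.

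Basal cells against the other 28 cells of the rest had 2 of 7 genes at least 2-fold higher (31.2% of 9235 genes) and 1 lower (47.1% of genes). *Itga6* was 7.54-fold higher (6.79 to 8.37) and *Lamb3* 2.09-fold higher (1.95 to 2.23, an interval that includes values under the limit), and *Lamb2* was 12.5-fold lower (8.999 to 17.9). Without the top cell of each class *Itga6* was 7.70-fold and *Lamb3* 4.94-fold higher, *Lamb2* was 42.1-fold lower, and *Lama5*, *Itga3* and *Itgb4* were also past 2-fold lower, at 67.5-, 5.14- and 3.24-fold. As a mean of single-cell CPM the *Lamb3* log2 ratio was 0.08, so its call was lost. The medians of the log2 ratios were 0.30 for the 7 genes and -0.64 for all genes. *Lamc1* was 1.35-fold higher (1.17 to 1.56), and without the 2 *Vim* cells its log2 ratio was 8.14, since 712 of the 714 reads of the other cells were in 1 of them. With 8 cells, this comparison moved most with the choice of cells. In chip columns 1 to 10 alone the log2 ratio of *Itga6* was -4.54, and over the alternatives the number of higher genes ran from 0 to 4.

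Within the AT1 class the 9 genes did not go together from cell to cell. With at least 5 reads, an AT1 cell had a median of 3 and at most 7 of the 9 genes, and 1 cell had none. In 30 of 45 cells 1 of the alpha chain genes *Lama3* and *Lama5* reached 5 reads, in 10 cells both did, and for the beta chain genes *Lamb2* and *Lamb3* these numbers were 22 and 4. Spearman coefficients of log2(CPM + 10) over the 45 cells, for the 36 pairs of the 9 genes, ran from -0.28 to 0.45 with a median of -0.02, and the highest was that of *Lamc1* with *Itga6*, which few cells expressed. *Lama3* had a coefficient of -0.20 with *Lamb3*. These are descriptions over cells of 1 mouse that share a chip and sequencing run, and *Itgb6* also went with the total reads of the cell (0.32).

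Levels of different genes were also set side by side per length, which assumes that reads cover whole transcripts. As CPM per kilobase of annotated exons, AT1 cells had *Lamb3* at 55.2, *Itgb6* at 49.5, *Lama3* at 40.4, *Itga3* at 39.2, *Lamb2* at 20.96, *Lama5* at 6.28, *Itga6* at 2.02, *Lamc1* at 1.23 and *Itgb4* at 0.0431. *Itgb1*, at 190, was above all 9. Basal cells had *Lamb3* at 34.5, *Itga6* at 21.3, *Itga3* at 12.8 and *Itgb4* at 11.8 as their highest values on this scale. How evenly the reads cover a transcript is not given in the sources used here, so the order of genes on this scale is not established. If reads were restricted to the 3′ end of transcripts, division by length would not apply. By CPM alone, *Lama3* (434) was above *Lamb3* (365) in AT1 cells.

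Over the 92 cells, and among 3549 genes that averaged 50 CPM or more, the genes most like *Lama3* by Spearman coefficient were *Clic5* (0.76), *Vegfa* (0.73) and *Emp2* (0.73), and those most like *Itgb6* were *Hopx* (0.59), *Pmp22* (0.57) and *Cav1* (0.56). *Clic5*, *Emp2* and *Hopx* are on the AT1 marker list. *Itgb4* was most like *Krt15* (0.47), a keratin on the basal list, *Fxyd3* (0.43) and *Sult1d1* (0.39), and *Lamb3* most like *Ccnd2* (0.48), *Pard6b* (0.44) and *Amotl1* (0.44). For the other 5 genes the highest coefficient was 0.43. The genes most like these 5 were *Rragc*, *Isg20* and *Nrbp2* for *Lama5*, *Gcnt2*, *Cobl* and *Eif1b* for *Lamb2*, *Rarres2*, *Phip* and *Fam104a* for *Lamc1*, *Tgm2*, *Krt7* and *Celf2* for *Itga3*, and *Hmgn3*, *Asns* and *Tmem167* for *Itga6*. By Pearson coefficient, none of the genes named for *Lamb2*, *Lamb3*, *Lamc1*, *Itga3* and *Itgb6* was in the top 3. *Asns* with *Itga6* had a Pearson coefficient of 0.006. *Itga6* and *Lamc1* had reads in only 20 and 15 of the 92 cells. The cells share 1 chip and fall into classes, so these coefficients largely compare classes.

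The other integrins were 11 genes, of which 9 were counted and 6 could be compared between the alveolar classes, 4 of them at least 2-fold higher in AT1 cells and 2 lower, against the 51.4% and 24.3% of all genes given above. Beside *Itgav* and *Itgb1*, the higher ones were *Itgb3*, at 151 CPM in AT1 cells against 0.463 CPM in AT2 cells, and *Itgb5*, at 291 CPM against no AT2 read, which is at least 628-fold higher with 3 reads allowed for the AT2 class. Both encode beta subunits that pair with alphav. The lower ones were *Itga9*, a receptor subunit for tenascin, at 53.4 CPM against 230 CPM, and *Itga7*, a laminin receptor subunit, with 1 AT1 read and 57.7 CPM in AT2 cells, where 1 cell held 86.1% of the reads and the others were at 8.58 CPM, under the minimum. *Itga8* had 1787 CPM in 1 *Vim* cell. *Itga1* and *Itga2* were not analysed here.

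Within the rest, the 4 hemidesmosome genes (*Col17a1*, *Plec*, *Dst* and *Cd151*) were at least 2-fold higher in basal cells than in the other cells, against the 31.2% of all genes given above. Without the top cell of each class 3 of 4 were, and the *Plec* ratio went from 7.83-fold to 1.999-fold. *Col17a1*, the transmembrane collagen of hemidesmosomes, was at 110.8 CPM in basal cells, with reads in 3 of 8 cells and no read in AT1 or AT2 cells. Without the top basal cell it was at 42.8 CPM. *Dst*, a linker to keratin filaments, was at 424 CPM in basal cells, with reads in all 8, 87.5 CPM in AT1 cells and 33.8 CPM in AT2 cells, and *Plec* at 152, 226 and 219 CPM. Without the top cell of each class these levels were 359, 30.9 and 6.86 CPM for *Dst* and 17.3, 173 and 61.7 CPM for *Plec*. *Cd151*, a tetraspanin that binds laminin-receptor integrins, was highest in AT1 cells, at 191 CPM against 6.02 CPM in AT2 cells. Of 5 other laminin receptor genes, *Dag1* (dystroglycan) and *Bcam* (a receptor of laminin alpha5) were higher in AT1 cells at 987 and 406 CPM against 119.5 and 103.6 CPM in AT2 cells, *Sdc4* and *Rpsa* were lower, and *Sdc1* was within 2-fold. Without the top cell of each class *Sdc4* was 1.87-fold lower, under the limit.

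Genes whose products bind laminin networks or sit beside them numbered 7, of which 5 could be compared between the alveolar classes. Of these 4 were at least 2-fold higher in AT1 cells and 1 lower, against 51.4% and 24.3% of all genes. In AT1 cells *Agrn* (agrin, which tethers laminin to dystroglycan) was at 636 CPM, *Npnt* (nephronectin, an integrin ligand) at 637 CPM, *Ntn4* (netrin-4, which binds laminins) at 369 CPM and *Hspg2* (perlecan) at 319 CPM. In AT2 cells these 4 were at 3.09, 81.4, 0.618 and 0.926 CPM. *Egfl6*, a basement membrane protein with an integrin-binding site, went the other way, at 500.2 CPM in AT2 cells with reads in 8 of 11 cells and 0.432 CPM in AT1 cells. Basal cells had *Agrn* at 414 CPM. The linker gene *Nid1* had no read in AT1, AT2 or basal cells and 300 reads in 1 *Vim* cell.

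Of 11 adaptor genes that couple integrins to actin, 10 could be compared between AT1 and AT2 cells, and 7 were at least 2-fold higher in AT1 cells, 0 lower, against 51.4% and 24.3% of all genes. They included *Tln1* (talin), at 194 CPM against 43.7 CPM, *Vcl* (vinculin), at 277 CPM against 31.3 CPM, *Lims1*, at 200.4 CPM against no AT2 read, and *Fermt2*, a kindlin, at 359 CPM against 91.4 CPM. *Fermt1*, the kindlin of keratinocytes, was at 59.5 CPM in the rest with 1 read in AT1 cells and none in AT2 cells. *Src* was at 172, 193 and 11.9 CPM in AT1 cells, AT2 cells and the rest.

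Alphav beta6 acts on the latent products of *Tgfb1* and *Tgfb3*, whose latency peptides carry the motif it binds. *Tgfb1* was at 1.30 CPM in AT1 cells, and *Tgfb3* had no read there. *Tgfb2*, whose latency peptide lacks that motif, was at 151 CPM in AT1 cells, with no AT2 read and 0.739 CPM in the rest. The latency protein gene *Ltbp3* was at 1203 CPM in AT1 cells and 233 CPM in AT2 cells. *Ltbp4* was at 0.303 CPM in AT1 cells and 664 CPM in basal cells, and *Ltbp1* had no read in AT1, AT2 or basal cells. Of the genes for proteases that trim laminin chains, *Bmp1* and *Furin* could be compared and neither differed 2-fold between AT1 and AT2 cells, although *Furin* was 28.9-fold higher in AT1 cells without the top cell of each class. In basal cells *Furin*, *Bmp1* and *Tll1* were at 255, 97.2 and 18.9 CPM, each at least 2-fold above the other cells of the rest (31.2% of all genes). These values rested on 1 cell per gene, without which basal cells were at 24.5 and 0.801 CPM of *Furin* and *Bmp1*, with ratios of 0.739 and 0.847, and had no *Tll1* read. *Ltbp2* and *Mmp2* were not analysed here.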

How the data were processed

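Single-cell RNA-seq was made on a Fluidigm C1 chip from 1 mouse. According to the methods and the submitters' processing notes, the authors used Trim Galore and FastQC for trimming and quality checks, HISAT2 for alignment to GRCm38, and featureCounts for counting. The deposited values are raw counts per gene and cell, whole reads with no unique molecular identifiers stated. Doublets were removed by the authors by microscopy and not called here.

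Total reads in the deposited cells ranged from 91402 to 2170760 (median 419970). Cells with 15% or more of reads on 37 mitochondrial genes (49 cells) were left out. Counts were summed per class and divided by all counted reads of the class to give CPM. Shares have Clopper-Pearson, CPM exact Poisson and ratios exact conditional intervals, each at 95%. A gene was compared between classes with at least 10 CPM in the higher class, and called at 2-fold. There are no replicates and no p-values. Gene positions and lengths came from GENCODE vM21, with 16112 symbols matched, and promoters from RefSeq GRCm38.p6. Thinning drew 90000 reads per cell.

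The genes and lists were chosen with earlier results of these data known. Named genes are the 9, the partners that complete a trimer or integrin, list genes with at least 50 CPM in a class and a 4-fold ratio in 1 comparison, and for each of the 9 the 3 genes with the highest Spearman coefficient. Other list genes were named to say which they are, after their values were seen, and 1 gene is not reported here. Alternatives changed the mitochondrial maximum, the class limits, the library size (including scran 1.30.0), the weight of cells, depth, top cells, chip columns, fold and minimum level. Steps were tested on simulated data. Python 3.11.15, numpy 2.4.6, pandas 2.3.3, scipy 1.17.1 and R 4.3.3 were used.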

Additional observations from a re-analysis of the deposited data

Results flagged for a closer look

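Signals of 8 of the 9 genes also appeared in cells outside the comparisons. By the same limits, 19 of the 49 cells left out for a mitochondrial share of 0.15 or more were AT1 cells. In them *Lama3* was at 312 CPM (300.1 to 325, 16 of 19 cells with reads), *Lamb3* at 504 CPM (489 to 520.2, 8 cells), *Lamb2* at 447 CPM (432 to 462, 12 cells), *Itga3* at 143 CPM (134.9 to 152, 14 cells), *Lama5* at 91.1 CPM, *Lamc1* at 21.3 CPM and *Itgb4* at 1.63 CPM. *Itgb6* was at 66.8 CPM (61.2 to 72.7), with reads in 3 of 19 cells, against 352 CPM and 31 of 45 cells in the kept AT1 class. *Itga6* had 1 read. Of the 3565 *Lamb2* reads 1989 came from 1 cell, and of the 533 *Itgb6* reads 450 came from 1 cell. Each of the 8 lies above the limit that a count of 0 allows. The cells were left out for a high mitochondrial share, whose part in the lower *Itgb6* level was not tested. By the same limits, 16 of the cells left out were AT2 cells. In these *Lamb3* was at 21.6 CPM (17.5 to 26.4), with 95 reads in 4 cells, against 0.309 CPM in the kept AT2 class. Of the 95 reads 83 came from 1 cell. *Itgb4* and *Itgb6* had 1 read each in these AT2 cells.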

How the results depend on the processing

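All cells come from 1 mouse, so the alternatives show how far values depend on cells and settings, not on animals. No paired analysis was possible because there is 1 sample and no test. Few cells per class and reads that often sit in 1 cell limit the precision, most of all for AT2 and basal cells.

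Across 36 ratios of the 9 genes, 459 alternative values were computed, of which 219 stayed within the counting interval, 235 moved and 5 turned in direction. On the log2 scale these were -1.62 for *Itga6*, AT1 against AT2, with a mitochondrial maximum of 0.10, 5.21 for *Lamc1*, AT1 against the rest, 1.46 for *Lamc1* and -1.09 for *Lama3*, AT2 against the rest, all 3 in chip columns 11 to 20, and -4.54 for *Itga6*, basal against the other cells of the rest, in chip columns 1 to 10. Fewer cells enter these settings. The cause was not tested.

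For AT1 against AT2 cells the number of higher genes stayed between 5 and 8 (6 in the report), and the number of lower genes was 1 with a mitochondrial maximum of 0.10. For AT1 cells against the rest there were 3 higher genes in chip columns 1 to 10, and with a 4-fold limit 2 higher and 1 lower. For AT2 cells against the rest the higher genes numbered 2 with a maximum of 0.10 and 0 without the top cells. For basal cells the higher genes numbered 4 with all deposited cells, in chip columns 11 to 20 and with no minimum level, 0 in chip columns 1 to 10, and 1 with doubled class limits, the mean of single-cell CPM, a library size without mitochondrial, *Sftpc* and *Scgb1a1* reads, scran size factors, thinning and a 4-fold limit. The lower genes numbered 4 without the top cells and in chip columns 1 to 10, 0 in chip columns 11 to 20, and 2 with a maximum of 0.10, all deposited cells, halved class limits, the mean of single-cell CPM, the library size without those reads, scran, thinning and, added after seeing the data, without the 2 cells with over 100 CPM of *Vim*. The share of AT1 cells with both subunits of integrin alpha3 beta1 was 48.9% with at least 5 reads and 51.1% after thinning. Of 204 shares of cells, 160 stayed within their interval and 44 moved.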
